A study of Mus musculus with 9 samples.

Results

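The Slc25 genes encode the mitochondrial carrier family, the proteins that move metabolites, nucleotides and cofactors across the inner mitochondrial membrane. Their expression was read in the inguinal white fat pad, a subcutaneous depot, of adult mice. Members were all rows of the deposited array table whose platform annotation names 1 gene symbol beginning with Slc25a, with the brightest row kept where a gene has several. This gave 46 genes among 30743 genes with 1 symbol. Of these, 37 lay at or above the filter on dim rows, a row mean of 5.31 on the log2 scale over the 9 arrays, and entered the test with 16915 genes in all. The other 9 (Slc25a2, Slc25a13, Slc25a18, Slc25a21, Slc25a29, Slc25a31, Slc25a41, Slc25a43 and Slc25a54) lay under it and were not tested. Slc25a47, with a row mean of 5.42, was the tested member nearest the filter, and Slc25a13, with 5.22, the nearest one under it.

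There were 3 groups with 3 arrays each. Cold controls (Adiponectin-rtTA; TRE-Cre; Zfp423+/+) ate doxycycline chow for 28 days and spent the last 14 of them at 6 °C, a treatment used to bring out beige adipocytes. Knockouts (Adiponectin-rtTA; Tre-CRE; Zfp423loxP/loxP) and room temperature controls (same genotype as the cold controls) ate the chow for 28 days without cold. All mice therefore carried both transgenes and took doxycycline, which began at 8 weeks of age, and the adiponectin promoter confines the induced Cre to adipocytes. Zfp423 is a zinc finger transcription factor of white adipocytes, and the design asked how closely fat lacking it resembles cold-induced beige fat. RNA came from the whole fat pad, in which fewer cells of a type and less RNA per cell cannot be told apart. Whether each array stands for its own mouse is not stated, and p-values here reflect array-to-array spread alone, which may be technical.

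Zfp423 read 7.56, 8.15 and 8.04 log2 units on the knockout arrays, against 8.74, 8.22 and 8.40 on the room temperature control arrays. The groups did not overlap, but the difference of -0.53 ± 0.20 (SE) did not pass the test (limma adjusted p = 0.256). Ucp1, the uncoupling protein of thermogenic adipocytes and itself a mitochondrial carrier, read 18.86 to 19.18 in cold controls and 18.34 to 19.92 in knockouts, against 11.74 to 13.07 in room temperature controls. Among the tested genes whose 3 arrays of a group held distinct values, one array most often had the intermediate value: cold replicate 2 for 52.8% of 13401 genes, knockout replicate 3 for 73.7% of 14179 and room temperature replicate 3 for 67.3% of 13185. The label of cold replicate 3 carries a slightly different prefix, whose meaning is not stated. Adipocyte markers were bright on every array, with a mean over 11 tested markers of 12 listed between 16.16 and 16.32 log2 units in cold controls, 15.48 and 16.18 in knockouts, and 15.94 and 16.39 in room temperature controls.

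The inner mitochondrial membrane is closed to most charged molecules, so each carrier sets which substrate can enter or leave the matrix. In white fat, export of citrate feeds fatty acid synthesis in the cytosol. In thermogenic fat, import of acylcarnitines feeds fatty acid oxidation, and import of phosphate and of ADP serves ATP synthesis. A few members sit in other membranes or have no settled substrate.

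The members past the threshold of 0.05 after adjustment over all tested genes were Slc25a10, Slc25a1, Slc25a23 and Slc25a48. Against room temperature controls, cold controls had 2 of 37 members higher (Slc25a10 and Slc25a48) and 0 lower, beside 1.32% and 0.189% of all tested genes. At an unadjusted limma p under 0.05, 15 were higher and 3 lower in this comparison, beside 9.31% and 11% of all tested genes. Knockouts against room temperature controls had 0 members higher and 1 lower (Slc25a10), beside 0.225% and 0.142% of all tested genes, and 14 were higher and 4 lower at an unadjusted p under 0.05, beside 8.84% and 7.31%. Cold controls against knockouts had all 4 higher and 0 lower, beside 1.24% and 1.15%, with 6 higher and 3 lower at an unadjusted p under 0.05, beside 10.1% and 16.7%. Without the middle array of each group 0 members and 0 genes passed in any comparison, with 6, 8 and 4 members at an unadjusted p under 0.05 for cold, for the knockout and for cold against knockout. The middle array was picked from these same data. Leaving it out keeps the outer arrays for most genes, which widens the spread and lowers the degrees of freedom by construction. This fit therefore cannot tell whether the calls depend on the middle arrays, and that was not tested. The sizes stayed near those with all arrays: 2.37 ± 0.27 for Slc25a10 between cold controls and knockouts (limma adjusted p = 0.668) and 1.35 ± 0.12 for Slc25a48 between cold and room temperature controls (0.816). The first 2 of these comparisons share the same 3 control arrays.

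Of the 3 tested carboxylate carriers, 2 were higher in cold controls than in knockouts, beside 1.24% of all tested genes. Slc25a10, the dicarboxylate carrier that exchanges malate and succinate for phosphate, read 11.83, 12.10 and 12.39 log2 units in cold controls, 9.57, 9.91 and 9.80 in knockouts, and 10.86, 11.23 and 10.99 in room temperature controls. All 3 groups were separate, with the knockouts lowest and the cold controls highest. It rose 2.12-fold in cold against room temperature controls (log2 difference 1.08 ± 0.16 SE, limma adjusted p = 0.0315). It fell 2.40-fold in knockouts against room temperature controls (-1.26 ± 0.16, adjusted p = 0.0442). Cold controls stood 5.08-fold above knockouts (2.35 ± 0.16, adjusted p = 0.00301), and this call held when any single array was left out (adjusted p from 0.00589 to 0.0317). The knockout call held without knockout replicate 1 (adjusted p = 0.0245) or room temperature replicate 2 (0.0386). It was lost without room temperature replicate 1 (0.0923) or 3 (0.214), knockout replicate 2 (0.0634) or 3 (0.228), or cold replicate 1 (0.0631), 2 (0.133) or 3 (0.0685), and also with no filter (0.0843), with trend and robust settings (0.0509) and in a fit of only these 2 groups (0.178). The cold call held without knockout replicate 1 (0.0219) or 2 (0.0233). It was lost without knockout replicate 3 (0.0856), cold replicate 1 (0.0504), 2 (0.145) or 3 (0.0803), or room temperature replicate 1 (0.0818), 2 (0.0526) or 3 (0.152), and with no filter (0.0616).

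Slc25a1, the citrate carrier that brings citrate out of the matrix for fatty acid and sterol synthesis, read 14.02, 14.35 and 14.55 log2 units in cold controls, 12.07, 13.01 and 12.57 in knockouts, and 13.38 on all 3 room temperature arrays. The cold arrays were the highest and the knockout arrays the lowest, without overlap. Cold controls stood 3.38-fold above knockouts (1.76 ± 0.24, limma adjusted p = 0.0197). This call was lost without room temperature replicate 3 (0.0596), cold replicate 2 (0.109) or 3 (0.062), or knockout replicate 3 (0.098), and in a fit of only these 2 groups (0.0538). The difference from room temperature controls was 0.93 ± 0.24 in cold controls (adjusted p = 0.108) and -0.83 ± 0.24 in knockouts (0.157), neither of which passed. The SD of the room temperature arrays was 0.003, and 2 of them held an identical value.

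The other carboxylate carriers did not share this order. Slc25a11, the oxoglutarate carrier of the malate-aspartate shuttle, read 11.47, 11.51 and 11.47 log2 units in cold controls, 11.47, 11.89 and 11.75 in knockouts, and 11.16, 11.17 and 11.07 in room temperature controls. Both cold and knockout arrays lay above every room temperature array, but neither the cold difference of 0.35 ± 0.10 (limma adjusted p = 0.127) nor the knockout difference of 0.57 ± 0.10 (0.0618) passed. Slc25a21, the oxodicarboxylate carrier, was under the filter, with values between 4.30 and 4.61 on all arrays.

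Enzymes on either side of these carriers were read from a list of 12 genes of the shuttles and of citrate use, 11 of which were tested. Cold controls had 5 of the 11 higher and 0 lower than room temperature controls, beside 1.32% and 0.189% of all tested genes. The median log2 difference was 1.40 (median of all tested genes -0.02). Acly, which splits exported citrate into acetyl-CoA, was the one with the largest rise and read 15.74, 16.55 and 17.20 in cold controls, 11.77, 13.08 and 12.41 in knockouts, and 13.06, 14.01 and 13.68 in room temperature controls. Its cold rise was 2.91 ± 0.47 (limma adjusted p = 0.036). Gpd2 and Gpd1, the mitochondrial and cytosolic enzymes of the glycerol phosphate shuttle, rose by 2.70 ± 0.40 and 1.88 ± 0.22, and Mdh2, the matrix malate dehydrogenase, by 1.42 ± 0.25. In knockouts 0 of the 11 passed in either direction, and the median was 0.87 (all genes 0.02). Against knockouts, cold controls had 2 of the 11 higher and 0 lower, beside 1.24% and 1.15% of all tested genes. These were Acly (4.08 ± 0.47, limma adjusted p = 0.013) and Me1, the cytosolic malic enzyme (2.34 ± 0.42). Fasn, the fatty acid synthase downstream of citrate export and outside this list, was higher in cold controls than in knockouts by 1.71 ± 0.24 (limma adjusted p = 0.023). It did not pass against room temperature controls in cold controls (0.79 ± 0.24, adjusted p = 0.149) or in knockouts (-0.91 ± 0.24, 0.136). Its cold values of 19.07, 19.44 and 19.69 lie near the upper end of the deposited values.

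Slc25a48, which has been linked to choline transport into mitochondria, separated all 3 groups in another order. It read 6.63, 6.50 and 6.47 log2 units in cold controls, 5.75, 6.03 and 5.72 in knockouts, and 5.17, 5.23 and 5.27 in room temperature controls. Here the knockout arrays lay between the other groups. It rose 2.48-fold in cold against room temperature controls (1.31 ± 0.09, limma adjusted p = 0.0022), and this call held when any single array was left out (adjusted p from 0.000895 to 0.0258). Its room temperature mean of 5.22 was under the filter, so it entered the test through the other groups. With no filter the adjusted p of the cold rise was 0.00388. Cold controls stood 1.63-fold above knockouts (0.70 ± 0.09, adjusted p = 0.0173), a call lost without room temperature replicate 3 (0.0544), cold replicate 1 (0.0599) or 2 (0.0887), or knockout replicate 3 (0.0877). Knockouts stood 1.53-fold above room temperature controls, with an adjusted p of 0.0505 that missed the threshold.

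Slc25a23, a calcium-regulated exchanger of ATP-Mg for phosphate, read 11.67, 11.56 and 11.30 log2 units in cold controls, 10.63, 10.58 and 10.59 in knockouts, and 11.54, 10.90 and 11.13 in room temperature controls. The knockout arrays were the lowest, and the cold and room temperature arrays overlapped. Cold controls stood 1.88-fold above knockouts (0.91 ± 0.16, limma adjusted p = 0.0406). The call was lost without room temperature replicate 3 (0.0958), cold replicate 1 (0.114), 2 (0.173) or 3 (0.0696), or knockout replicate 1 (0.0814) or 3 (0.164), and with no filter (0.0722). The knockout difference from room temperature controls was -0.59 ± 0.16 (adjusted p = 0.15) and the cold difference 0.32 ± 0.16 (0.308). Of its relatives, Slc25a24, singled out after its values were seen, had a log2 difference of -0.22 ± 0.04 in cold controls (adjusted p = 0.0655) and of -0.22 ± 0.04 in knockouts (0.081), with both groups under every room temperature array. Slc25a25 had 1 value on 6 of its 9 arrays, and Slc25a41 was under the filter.

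**Figure D1:**
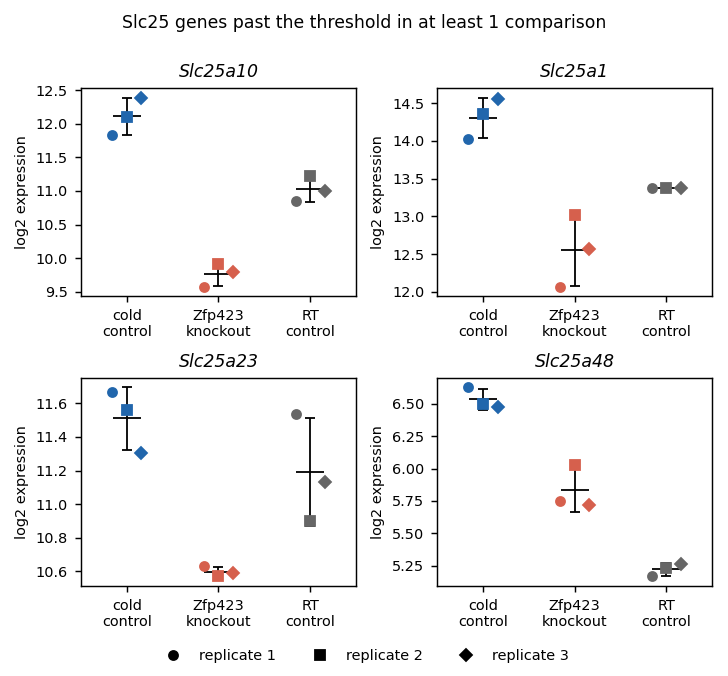
Log2 expression of Slc25a10, Slc25a1, Slc25a23 and Slc25a48 on each array, with the cold controls, the Zfp423 knockouts and the room temperature controls from left to right; bars are the mean ± SD (n = 3), and circle, square and diamond are replicates 1, 2 and 3. The knockout arrays are the lowest for Slc25a10, Slc25a1 and Slc25a23, while for Slc25a48 they lie between the cold and the room temperature arrays.

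The upstream sequences of these 4 genes are shown because they are the members past the threshold, and all 4 were higher in cold controls than in knockouts. Each is the 250 bases before a RefSeq start site (GRCm38.p6), 5′ to 3′ on the gene's strand. The capitals mark the 1 match to a searched motif, an E-box (CACGTG) in Slc25a1 at 239 bases before the start.
Slc25a10, chr11:120491587-120491836 (+): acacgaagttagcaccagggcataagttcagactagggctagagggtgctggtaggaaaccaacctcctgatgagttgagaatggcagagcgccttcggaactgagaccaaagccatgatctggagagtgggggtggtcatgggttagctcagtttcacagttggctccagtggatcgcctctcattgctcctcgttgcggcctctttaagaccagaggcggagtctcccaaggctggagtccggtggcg
Slc25a1, chr16:17928220-17928469 (-): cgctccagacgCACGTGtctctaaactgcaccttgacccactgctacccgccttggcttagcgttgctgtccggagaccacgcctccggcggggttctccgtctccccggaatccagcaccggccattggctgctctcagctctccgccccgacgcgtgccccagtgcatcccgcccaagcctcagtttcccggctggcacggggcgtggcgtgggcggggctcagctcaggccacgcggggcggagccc
Slc25a23, chr17:57059864-57060113 (-): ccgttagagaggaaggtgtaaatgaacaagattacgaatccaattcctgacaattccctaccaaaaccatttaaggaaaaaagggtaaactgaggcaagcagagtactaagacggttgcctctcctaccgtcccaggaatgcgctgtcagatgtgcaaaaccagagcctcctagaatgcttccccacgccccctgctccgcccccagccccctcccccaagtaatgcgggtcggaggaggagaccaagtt
Slc25a48, chr13:56438105-56438354 (+): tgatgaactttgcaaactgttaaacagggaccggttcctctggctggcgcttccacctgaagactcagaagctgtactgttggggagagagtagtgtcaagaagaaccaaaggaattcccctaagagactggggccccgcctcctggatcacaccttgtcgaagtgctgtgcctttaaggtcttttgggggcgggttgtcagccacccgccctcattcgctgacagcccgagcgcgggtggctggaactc
The Slc25a1 sequence was 70.0% G or C, against 56.0% in Slc25a10, 52.4% in Slc25a23 and 56.4% in Slc25a48. Slc25a23 had another RefSeq start site, whose overlapping sequence, not shown, was 55.2% G or C.

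Motifs were searched on both strands in windows that also take in the 50 bases after the start. RefSeq gave such windows for 36 of the 46 members, 46 windows in all. The E-box CACGTG, bound by several basic helix-loop-helix factors, was in 8 of the 46 windows (17.4%), which belong to 7 genes (Slc25a1, Slc25a13, Slc25a14, Slc25a15, Slc25a31, Slc25a33 and Slc25a36), against 9.45% of the promoters of tested genes and 7.15% of all promoters in the table. The Slc25a14 windows with the E-box overlap and hold the same site. Slc25a13 and Slc25a31 were under the filter, so the member windows are not a part of the tested set. The extended estrogen-related receptor element TCAAGGTCA was in 0 of the 46 windows, against 0.274% of the promoters of tested genes and 0.423% of all promoters. Its core AAGGTCA, which lies within the extended element, was in 1 window (Slc25a34, 2.17%), against 3.20% of the promoters of tested genes and 4.72% of all. A direct repeat of AGGTCA with a spacer of 1 base, which can hold the core motif, was in 0 windows, against 0.0391% and 0.0396%, and the sterol element TCACCCCAC in 0, against 0.579% and 0.551%. These matches are letters in a window and were not tested for binding.

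The largest differences from room temperature controls among the members were in Slc25a20, the carnitine-acylcarnitine carrier that brings fatty acids into the matrix for oxidation, and it did not pass the test. It read 14.57, 14.45 and 14.33 log2 units in cold controls, 13.76, 15.65 and 14.84 in knockouts, and 12.60, 12.05 and 12.19 in room temperature controls. Every cold and knockout array lay above every room temperature array, and the knockout arrays spread over a wider range than the cold arrays. The difference from room temperature controls was 2.17 ± 0.43 in cold controls (4.50-fold, limma adjusted p = 0.0627) and 2.47 ± 0.43 in knockouts (5.54-fold, 0.0644). Cold and knockout differed by -0.30 ± 0.43 (adjusted p = 0.684). The SE is shared by the 3 groups, whose SDs were 0.12 in cold controls, 0.95 in knockouts and 0.29 in room temperature controls. Array weights aside, the cold rise passed after quantile normalization, with the stricter filter and in the fit of cold and room temperature controls alone. It also passed without knockout replicate 1 or 2. The knockout rise passed with the stricter filter and without knockout replicate 1.

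Around Slc25a20, 9 of the 10 listed genes of carnitine handling were tested. Cold controls had 4 of them higher than room temperature controls and 0 lower, beside 1.32% and 0.189% of all tested genes. The median log2 difference was 0.28 (all tested genes -0.02). Knockouts had 2 higher and 0 lower, beside 0.225% and 0.142%, with a median of 0.54 (all 0.02). Cpt1b, the outer membrane enzyme that makes acylcarnitines and one of the thermogenic markers listed here, rose by 4.25 in cold controls and by 4.87 ± 0.51 in knockouts, and Acadvl, the first enzyme of oxidation for very long chains, by 2.43 and by 2.12 ± 0.26. Acsl5, an acyl-CoA synthetase, and Cpt2, which releases the acyl group inside the matrix, rose in cold controls by 1.78 ± 0.15 and 1.24 ± 0.15, and neither passed in knockouts. Against knockouts, cold controls had 2 of the 9 higher and 0 lower, beside 1.24% and 1.15% of all tested genes. These were Acsl5, by 1.87, and Crot, the peroxisomal octanoyltransferase, by 0.39 ± 0.07.

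Cofactor and nucleotide carriers gave most of the remaining large differences, and 0 of the 8 tested passed in any comparison. Slc25a42, which carries coenzyme A into the matrix, read 9.50, 8.97 and 8.29 log2 units in cold controls, 8.41, 10.80 and 9.63 in knockouts, and 7.32, 7.11 and 7.41 in room temperature controls. The cold and knockout arrays lay above all room temperature arrays, but both groups were spread widely. Its difference from room temperature controls was 1.64 ± 0.58 in cold controls (limma adjusted p = 0.191) and 2.33 ± 0.58 in knockouts (0.122). Of 8 listed genes of coenzyme A synthesis, all tested, 1 was higher in cold controls, Coasy, which carries out the final steps (1.10 ± 0.06), and it was also higher in cold controls than in knockouts, by 0.72. In knockouts against room temperature controls 0 of these 8 passed. Of all tested genes 1.32% were higher in cold controls than in room temperature controls, and 1.24% higher than in knockouts.

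Slc25a51, Slc25a17 and Slc25a33 are given array by array for the size of their differences, a choice made after their values were seen. Slc25a51, which carries NAD into mitochondria, read 12.14, 12.13 and 12.12 log2 units in cold controls, 11.73, 13.00 and 12.34 in knockouts, and 10.92, 10.75 and 10.82 in room temperature controls. Its 3 cold arrays had an SD of 0.01 and lay above the room temperature arrays (1.30 ± 0.28, limma adjusted p = 0.0747), as did the more scattered knockout arrays (1.52 ± 0.28, 0.0704). Slc25a17, a carrier of the peroxisomal membrane for coenzyme A and related cofactors, read 12.34, 12.20 and 12.25 in cold controls, 11.35, 13.85 and 12.85 in knockouts, and 11.35, 11.15 and 11.01 in room temperature controls. Knockout replicate 1 lay at the level of the highest room temperature array, and the differences were 1.09 ± 0.55 in cold controls (adjusted p = 0.301) and 1.51 ± 0.55 in knockouts (0.238). Slc25a33, a pyrimidine nucleotide carrier, read 7.30, 7.42 and 7.48 in cold controls, 7.26, 8.19 and 7.61 in knockouts, and 6.77, 6.61 and 6.42 in room temperature controls. Neither its cold difference of 0.80 ± 0.22 (adjusted p = 0.127) nor its knockout difference of 1.08 ± 0.22 (0.0846) passed. Across the 8 tested cofactor and nucleotide carriers, differences from room temperature controls ran from -0.03 to 1.64 in cold controls and from -0.01 to 2.33 in knockouts. Slc25a36, another pyrimidine nucleotide carrier, differed by 0.02 in cold controls, and Slc25a26, the carrier of S-adenosylmethionine, by -0.03.

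Slc25a35, whose substrate is not settled, read 12.51, 12.72 and 12.75 log2 units in cold controls, 11.46, 12.76 and 12.13 in knockouts, and 11.23, 11.12 and 10.98 in room temperature controls. All cold and knockout arrays lay above the room temperature arrays. The cold difference was 1.55 ± 0.29 (limma adjusted p = 0.0553) and the knockout difference 1.01 ± 0.29 (0.162), and neither passed. Its close relative Slc25a34 read 5.74, 5.70 and 5.35 in cold controls, 5.38, 6.37 and 6.07 in knockouts, and 5.36, 5.24 and 5.41 in room temperature controls. These groups overlapped, with differences of 0.26 ± 0.24 (adjusted p = 0.57) in cold controls and 0.61 ± 0.24 (0.281) in knockouts.

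**Figure D2:**
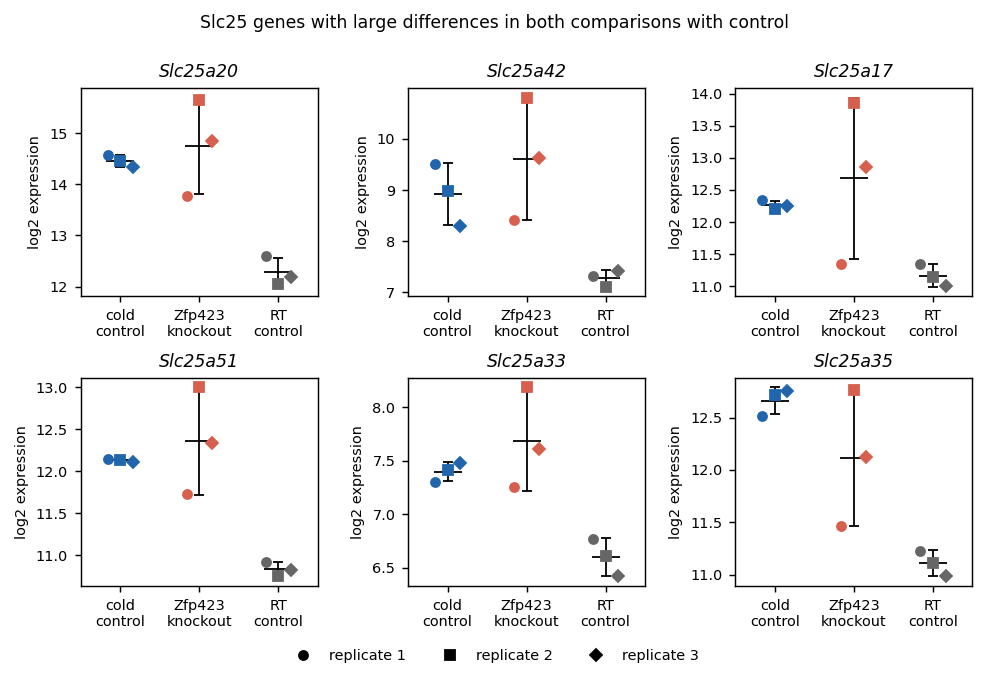
Log2 expression of Slc25a20, Slc25a42, Slc25a17, Slc25a51, Slc25a33 and Slc25a35 on each array, with the cold controls, the Zfp423 knockouts and the room temperature controls from left to right; bars are the mean ± SD (n = 3), and circle, square and diamond are replicates 1, 2 and 3. In all 6 genes knockout replicate 2 is the highest and knockout replicate 1 the lowest of the knockout arrays.

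None of the 3 tested carriers of ADP, ATP and phosphate passed in any comparison. Slc25a5, the widely expressed adenine nucleotide translocase, read 16.55, 16.56 and 16.45 log2 units in cold controls, 16.12, 16.83 and 16.46 in knockouts, and 16.03, 15.91 and 15.94 in room temperature controls. Cold and knockout arrays lay above every room temperature array, with differences of 0.56 ± 0.16 (limma adjusted p = 0.134) and 0.51 ± 0.16 (0.193). Slc25a4, the translocase of heart and muscle, read 13.45, 13.25 and 13.25 in cold controls, 12.87, 13.52 and 13.31 in knockouts, and 13.25, 12.91 and 13.18 in room temperature controls. The groups overlapped (0.20 ± 0.17, adjusted p = 0.53, in cold controls and 0.12 ± 0.17, 0.773, in knockouts). Slc25a3, the phosphate carrier, read 9.77, 9.75 and 9.75 in cold controls, 9.64, 9.75 and 9.75 in knockouts, and 9.70, 9.75 and 9.75 in room temperature controls. The same value stood on 6 of its 9 arrays, and its differences were 0.03 and -0.02. Slc25a31, the translocase of germ cells, was under the filter.

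Of the 17 listed genes of the ATP synthase, which uses what these carriers import, 16 were tested. In cold controls 3 were higher than in room temperature controls (Atp5l by 1.34 ± 0.22, Atp5a1 by 1.04 ± 0.17 and Atp5b by 0.65 ± 0.10) and 0 lower, with a median log2 difference of 0.61. In knockouts 0 passed, with a median of 0.50. Of all tested genes 1.32% were higher in cold controls and 0.225% in knockouts, with medians of -0.02 and 0.02. In cold controls 10 of the 16 had all arrays above the room temperature arrays and 2 all below, beside 14.6% and 18.1% of all tested genes. In knockouts these were 11 and 1, beside 9.31% and 8.01%. Between cold controls and knockouts 0 of the 16 passed. Among 24 listed carriers and channels outside the Slc25a symbols, 20 were tested. Cold controls had 3 of these higher and knockouts 1, against room temperature controls, beside 1.32% and 0.225% of all tested genes. Ucp1 rose in both, and no size is given because its 19.92 on knockout replicate 2 lies at the upper end of the deposited values. Mpc1, a subunit of the mitochondrial pyruvate carrier, and Abcb10, a transporter needed for haem synthesis, rose in cold controls by 1.53 ± 0.26 and 0.35 ± 0.04.

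Amino acid carriers had 5 tested members of 9, and 0 passed in any comparison. Slc25a44, a branched-chain amino acid carrier of brown fat in mice, read 10.23, 10.37 and 10.38 log2 units in cold controls, 9.29, 10.36 and 9.84 in knockouts, and 9.81, 9.39 and 9.57 in room temperature controls. The cold arrays lay above the room temperature arrays (0.74 ± 0.25, limma adjusted p = 0.18), while the knockout arrays overlapped them (0.24 ± 0.25, 0.675). Of 11 tested genes of branched-chain breakdown, Bckdha, a subunit of the committed dehydrogenase, was higher in cold controls than in room temperature controls (1.34 ± 0.07) and than in knockouts (0.99). Mccc1, a carboxylase of leucine breakdown, was higher in cold controls than in knockouts (0.76 ± 0.15). The median of the 11 was 0.54 in cold controls (all tested genes -0.02) and 0.21 in knockouts (all 0.02). In knockouts against room temperature controls 0 of the 11 passed. Of all tested genes 1.32% were higher in cold controls than in room temperature controls, and 1.24% higher than in knockouts.

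The aspartate-glutamate carriers, which complete the malate-aspartate shuttle, went without a call. Slc25a12 read 8.11, 7.99 and 7.74 log2 units in cold controls, 8.46, 8.19 and 8.33 in knockouts, and 8.19, 8.39 and 8.19 in room temperature controls. The cold arrays lay below all arrays of the other groups (-0.31 ± 0.12 against room temperature controls, limma adjusted p = 0.207, and -0.38 ± 0.12 against knockouts, 0.102). Slc25a13 was under the filter, at 5.21, 5.21 and 5.09 in cold controls, 5.39, 5.08 and 5.25 in knockouts, and 5.17, 5.34 and 5.21 in room temperature controls. Slc25a38, a glycine carrier needed for haem synthesis, read 6.71, 6.45 and 6.45 in cold controls, 6.45 on each knockout array, and 6.33, 6.45 and 6.42 in room temperature controls. One value stood on 5 of its 9 arrays, and its cold difference was 0.14 ± 0.08 (adjusted p = 0.337). Slc25a22, a glutamate carrier, and Slc25a15, the ornithine carrier, differed from room temperature controls by at most 0.42 in either group.

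Slc25a39, which carries glutathione into the matrix, read 10.08, 10.34 and 10.43 log2 units in cold controls, 9.44, 10.86 and 10.16 in knockouts, and 9.45, 9.18 and 9.22 in room temperature controls. The cold arrays lay above the room temperature arrays and knockout replicate 1 did not, and neither difference passed (1.00 ± 0.32, limma adjusted p = 0.164, in cold controls and 0.87 ± 0.32, 0.245, in knockouts). Its relative Slc25a40 differed by -0.02 in cold controls and by -0.01 in knockouts. Slc25a37, the iron carrier mitoferrin of red cell precursors, read 7.75, 7.98 and 7.97 in cold controls, 8.46, 7.95 and 8.01 in knockouts, and 8.01, 8.43 and 8.12 in room temperature controls. Its cold arrays lay below the room temperature arrays (-0.29 ± 0.16, adjusted p = 0.355), and its knockout arrays overlapped them. The broadly expressed mitoferrin Slc25a28 differed by -0.18 in cold controls and 0.07 in knockouts. Of 13 listed genes of haem and iron-sulphur synthesis, 11 were tested and 0 passed in any comparison. Alas1, the first enzyme of haem synthesis, differed by 0.85 ± 0.25 in cold controls (adjusted p = 0.14) and by 0.34 in knockouts. Glrx5, an iron-sulphur cluster protein, differed by 0.62 in cold controls (adjusted p = 0.214) and by 0.36 in knockouts.

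The uncoupling-protein-like Slc25a14, Slc25a27 and Slc25a30 had differences from room temperature controls between -0.30 and -0.00 in cold controls and between -0.19 and -0.00 in knockouts, with 8 of the 9 arrays of Slc25a27 on 1 value. Slc25a46, which sits in the outer membrane and acts in mitochondrial shape, differed by 0.39 ± 0.27 in cold controls (limma adjusted p = 0.43) and by 0.71 ± 0.27 in knockouts (0.255). The 9 members under the filter differed by at most 0.25 between groups.

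**Figure D3:**
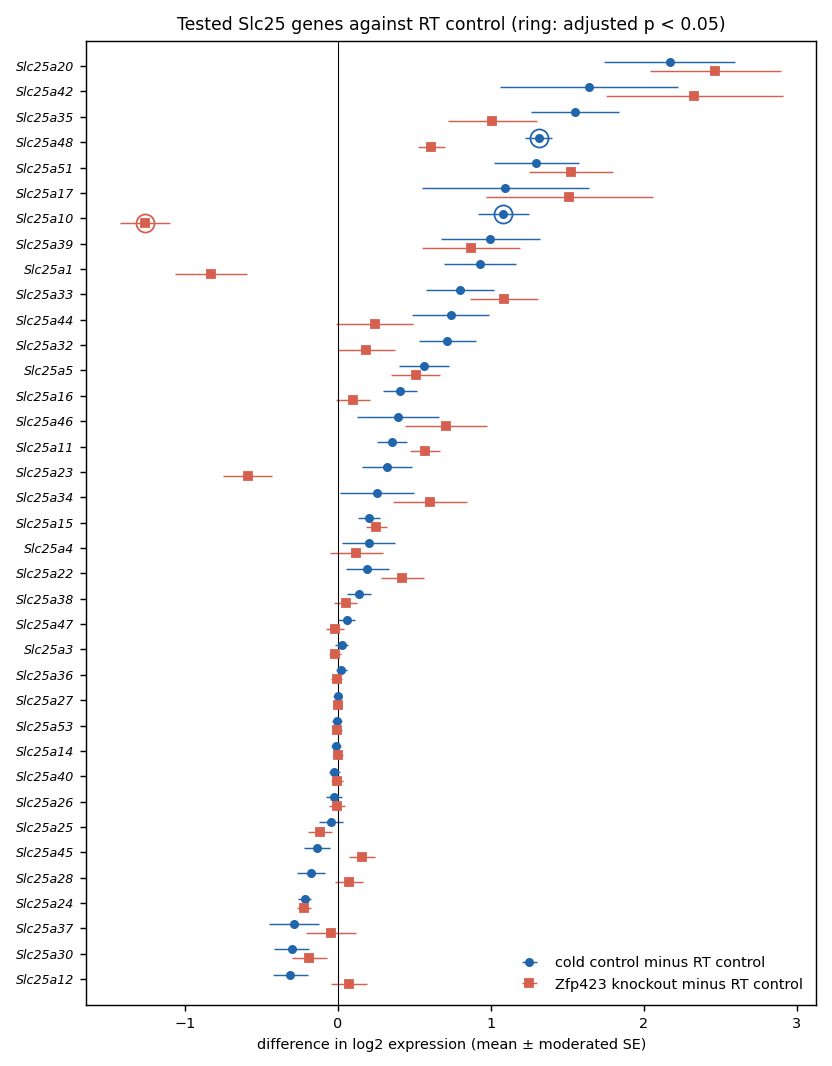
Log2 difference from room temperature controls of the 37 tested Slc25 genes, with the moderated SE (n = 3 arrays a group); blue circles are cold controls, red squares Zfp423 knockouts, and a ring marks an adjusted p under 0.05. Slc25a10 and Slc25a48 are ringed for cold and Slc25a10 for the knockout, and Slc25a20 has the largest differences with wide errors.

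Over the 37 tested members, the median log2 difference from room temperature controls was 0.21 in cold controls (all tested genes -0.02) and 0.10 in knockouts (all 0.02). The knockout median was 0.05 without knockout replicate 2, 0.16 without room temperature replicate 1 and 0.21 over members with at least 5 distinct values. Between cold controls and knockouts it was 0.00 (all -0.03). In cold controls 18 members (48.6%) had all arrays above and 4 (10.8%) all arrays below the room temperature arrays, beside 14.6% and 18.1% of all tested genes. In knockouts these were 12 (32.4%) and 4 (10.8%), beside 9.31% and 8.01%. Between cold controls and knockouts 6 (16.2%) lay above and 3 (8.11%) below, beside 12.3% and 20%. In the 3 against 3 design an exact two-sided permutation test of a single gene cannot go below p = 0.1. The knockout members with arrays wholly below were Slc25a1, Slc25a10, Slc25a23 and Slc25a24, and the cold ones Slc25a12, Slc25a24, Slc25a37 and Slc25a45.

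Members varied more among the knockout arrays than in the other groups. The median SD of the 37 was 0.08 in cold controls, 0.17 in knockouts and 0.09 in room temperature controls, beside 0.08, 0.14 and 0.11 over all tested genes. An SD over 0.5 was found for 1 member in cold controls (Slc25a42), 9 in knockouts and 0 in room temperature controls. Of the 28 members with 3 distinct knockout values, 23 (82.1%) were highest on knockout replicate 2 and 22 (78.6%) lowest on knockout replicate 1, beside 43.2% and 41.4% of 14179 genes. Without knockout replicate 1, 12 members were higher and 1 lower in knockouts than in room temperature controls, beside 4.06% and 0.828% of all tested genes. The 12 were Slc25a5, Slc25a11, Slc25a17, Slc25a20, Slc25a22, Slc25a33, Slc25a34, Slc25a35, Slc25a39, Slc25a42, Slc25a48 and Slc25a51, and the other was Slc25a10. Replicates 1 and 2 were mostly the lowest and the highest knockout arrays of the members. Leaving out either narrows the spread by construction, and leaving out replicate 1 also raises most knockout means. The arrays left out here were singled out from these same data. In cold against room temperature controls 11 members were higher and 1 lower without knockout replicate 2, beside 3.94% and 1.89% of all tested genes. A fit of these 2 groups alone, without the knockout arrays, had 14 members higher and 1 lower, beside 5.47% and 2.5%. The 14 were Slc25a1, Slc25a5, Slc25a10, Slc25a11, Slc25a17, Slc25a20, Slc25a33, Slc25a35, Slc25a39, Slc25a42, Slc25a44, Slc25a46, Slc25a48 and Slc25a51, and the other was Slc25a24.

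Markers of cell types moved between the same arrays. The mean of 10 thermogenic markers was 13.88, 13.64 and 13.38 log2 units in cold controls, 12.40, 15.08 and 14.20 in knockouts, and 8.999, 9.738 and 9.428 in room temperature controls, so that among knockouts it too was highest on replicate 2 and lowest on replicate 1. Of these 10, 8 were higher in cold controls than in room temperature controls and 0 lower, beside 1.32% and 0.189% of all tested genes. In knockouts 7 were higher and 0 lower, beside 0.225% and 0.142%. T cell markers (11 tested of 12) averaged 8.40 to 8.47 in cold controls, 10.78, 9.17 and 10.17 in knockouts, and 9.08 to 9.67 in room temperature controls, so knockout replicate 1 was the highest. Of the 11, 0 passed against room temperature controls. Between cold controls and knockouts 1 was lower in cold (Il7r, -1.89 ± 0.27), beside 1.15% of all tested genes. Macrophage markers (11 of 12) averaged 8.61 to 8.82, 8.71 to 10.25 and 9.40 to 10.26, and B cell markers (9 of 10) 8.68 to 9.74, 9.51 to 10.93 and 9.61 to 11.18, in cold controls, knockouts and room temperature controls in that order. Endothelial markers (10 of 10) averaged 10.74 to 10.95 in cold controls, 9.90 to 10.76 in knockouts and 10.31 to 10.71 in room temperature controls. Skeletal muscle markers (14 of 14) averaged 11.17, 10.07 and 6.58 in cold controls, 9.31, 11.15 and 10.47 in knockouts, and 10.58, 11.18 and 10.80 in room temperature controls. Among knockouts the adipocyte, endothelial and muscle markers were, like the thermogenic ones, highest on replicate 2 and lowest on replicate 1. T cell, macrophage and B cell markers were highest on replicate 1 and lowest on replicate 2. Slc25a42 had its highest cold value on replicate 1 and its lowest on replicate 3. Muscle, thermogenic, adipocyte, endothelial and T cell markers had the same order among cold arrays, and macrophage and B cell markers the reverse. Of the erythroid markers 1 of 12 (Alas2) and of the mammary epithelial markers 0 of 11 were above the filter. The part of these markers in the differences of the members was not tested.

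**Figure D4:**
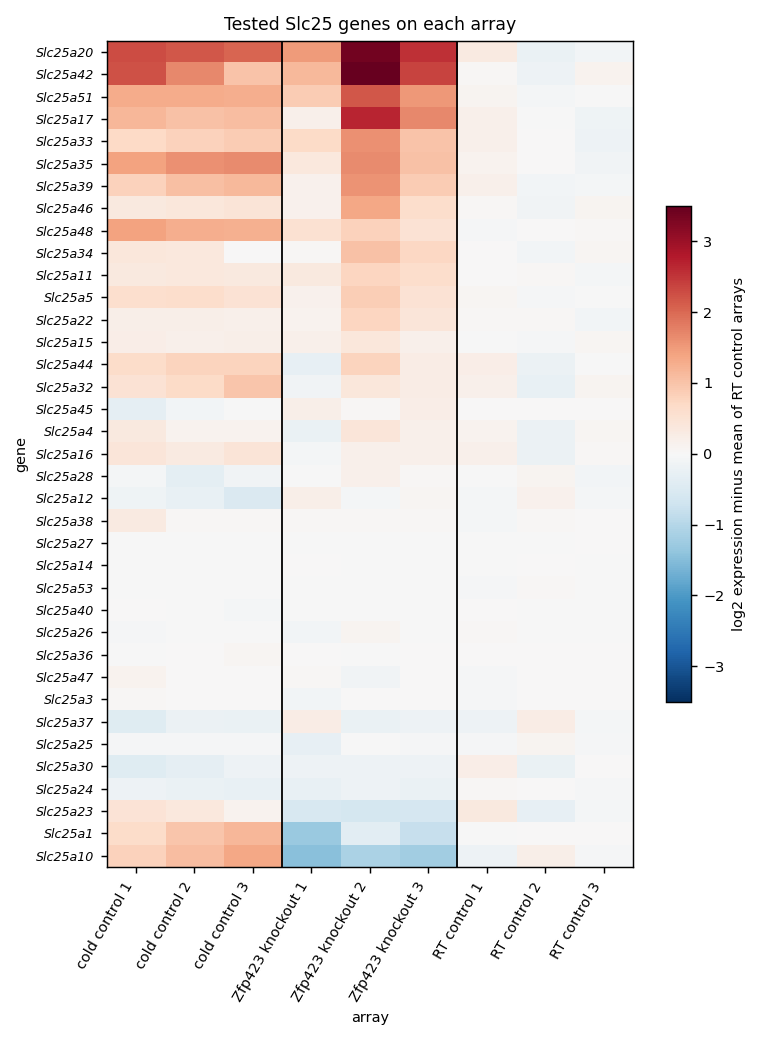
Log2 value minus the mean of the room temperature control arrays for the 37 tested Slc25 genes (rows) on the 9 arrays (columns: cold replicates 1 to 3, knockout replicates 1 to 3, room temperature replicates 1 to 3). Knockout replicates 1 and 2 stand apart for genes such as Slc25a20, Slc25a42 and Slc25a17, while Slc25a10, Slc25a1 and Slc25a23 are below the room temperature mean on all 3 knockout arrays.

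Repeated values limit some members. In 9 of the 37 tested members (24.3%) 5 or more arrays held 1 identical value, beside 2577 of all tested genes (15.2%), and 5 of the 9 members under the filter had the same feature. The 9 tested members were Slc25a3, Slc25a14, Slc25a25, Slc25a26, Slc25a27, Slc25a36, Slc25a38, Slc25a40 and Slc25a53, none of which passed in any of the 3 comparisons.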

How the data were processed

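Total RNA was hybridised to Affymetrix mouse transcriptome arrays, 1 per sample, with biotin label. The authors deposited 72688 rows of log2 values, made with Affymetrix Expression Console per the submitters' processing notes. For its version, normalization and genome build nothing is given in the sources used here. The log2 scale was inferred from a range of 1.84 to 19.93. Rows were named through the platform annotation, 31216 with 1 symbol, 1534 with several and 33020 with none, and 827 symbols were updated through RefSeq. Control and other rows (6918) were left out, as were rows with a mean under the median row mean (5.31). Paralogs and pseudogenes with near-identical sequence cannot be parted by probes. The array number limits the precision.

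Group means of the 9 arrays were fitted with limma 3.58.1 in R 4.3.3 (lmFit and eBayes, 6 residual degrees of freedom, two-sided, Benjamini-Hochberg over 16915 genes, threshold 0.05). Errors of differences are moderated SEs. The fit was tested on simulated data. Members, lists and tests were chosen with earlier results of these data known. Values on every array are given for members past the threshold and for a fixed set (Slc25a1, Slc25a3, Slc25a4, Slc25a5, Slc25a10, Slc25a11, Slc25a12, Slc25a13, Slc25a20, Slc25a34, Slc25a35, Slc25a37, Slc25a38, Slc25a39, Slc25a42 and Slc25a44), and exceptions are stated. Of each list, up to 4 members past the threshold are named, or up to 2 where none passed. Alternatives were quantile normalization, no filter, a stricter filter (7.39), the mean of all rows of a gene, trend and robust settings, array weights, only the 2 groups compared, a replicate block, each array left out, and the middle arrays left out. Leaving out genes with constant values and members with under 5 distinct values were chosen after seeing the data. Promoter sequences are from RefSeq (GRCm38.p6).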

Additional observations from a re-analysis of the deposited data

How the results depend on the processing

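The count of Slc25 genes past the threshold depended on the processing. With 3 arrays a group it rests on 6 residual degrees of freedom, and leaving out an array lowers these by construction. Leaving out the middle arrays also widens the spread by construction. Knockouts against room temperature controls had 1 member of 37 and 62 genes in all, and the counts were 0 and 14 with no filter, 4 and 146 with the stricter filter, 0 and 37 with trend and robust settings, 0 and 0 with only these 2 groups (13 and 1951 at an unadjusted p under 0.05), and 0 and 0 without the middle arrays (8 and 689 unadjusted). There were 2 members with the mean of all rows and 2 with constant genes left out. Cold against room temperature controls had 2 members and 255 genes, with 4 members after quantile normalization, 1 member and 130 genes with no filter, 15 and 1348 with only these 2 groups, and 0 and 0 without the middle arrays (6 and 791 unadjusted). Cold controls against knockouts had 4 members and 405 genes, with 3 members and 222 genes with no filter, 3 members with only these 2 groups, 709 genes with the stricter filter, and 0 members and 0 genes without the middle arrays (4 and 987 unadjusted). Array weights gave 27 members and 11831 genes, 24 and 8967, and 21 and 9975 in these 3 comparisons, in a fit that gave knockout replicate 3 nearly all the weight and stopped before it converged. Leaving out 1 array gave 0 to 827 genes for the knockout, 23 to 986 for cold and 14 to 2700 for cold against knockout. For the knockout the members numbered 13 without knockout replicate 1, 1 without knockout replicate 2 (Slc25a48, higher) or room temperature replicate 2, and 0 without any other array. For cold they numbered 10 without knockout replicate 1, 12 without knockout replicate 2, and 1 (Slc25a48) without any other array. For cold against knockout they numbered 7 without knockout replicate 2, 4 without room temperature replicate 1 or 2, 3 without knockout replicate 1, 2 without cold replicate 1 or 3, and 1 (Slc25a10) without room temperature replicate 3, knockout replicate 3 or cold replicate 2. Replicate numbers did not pair the arrays (same-number correlations of deviations of -0.46, -0.46 and 0.02 between room temperature controls and knockouts). For cold controls they were 0.04, 0.05 and 0.01 with room temperature controls and -0.24, 0.02 and 0.08 with knockouts. The highest values were between unlike numbers: 0.47 for room temperature replicate 2 with knockout replicate 1, and 0.45 for room temperature replicate 1 with knockout replicate 2. The fit with the replicate number as a block gave 0 members and 1 gene for the knockout, 1 and 42 for cold, and 1 and 36 for cold against knockout. Under the block the calls of Slc25a10 against room temperature controls (adjusted p 0.0625 for the knockout and 0.0553 for cold) and of Slc25a1 (0.0585), Slc25a23 (0.0908) and Slc25a48 (0.0833) between cold and knockout were lost. The median cold difference of 0.21 was 0.30 after quantile normalization, 0.16 with no filter, 0.39 with the stricter filter, 0.24 with array weights, 0.26 without the middle arrays, 0.37 over members with at least 5 distinct values, and 0.18 to 0.27 when 1 array was left out. None of the differences that changed sign had passed the test with all arrays and the reported settings. For the knockout against room temperature controls these were Slc25a3 (0.000755 with array weights, -0.0371 to 0.0174 when 1 array was left out), Slc25a37 (-0.21 to 0.0759), Slc25a4 (-0.0246 to 0.30) and Slc25a44 (-0.0223 to 0.51). For cold against knockouts they were Slc25a17 (-1.09 to 0.16), Slc25a20 (-0.79 to 0.15), Slc25a39 (-0.23 to 0.48), Slc25a4 (-0.0232 with array weights, -0.10 to 0.23), Slc25a46 (-0.59 to 0.00617), Slc25a5 (-0.12 to 0.23) and Slc25a51 (-0.54 to 0.10). Unless stated otherwise the cause was not tested. Of the other values of named genes under the alternatives, 1084 kept direction and side of the threshold, 97 newly passed and 46 no longer passed. These counts include the array weights fit, from which many of the new passes came.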
